A study of Mus musculus with 12 samples.

Results

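The enzymes described here are those that break down tyrosine and tryptophan in the liver. They were chosen by name: Tat, Hpd, Hgd, Gstz1 and Fah of the tyrosine route, and Tdo2, Kmo, Kynu and Haao of the tryptophan route. These 9 genes, of 34741 gene names on the array, were represented by 11 probes. Kmo and Kynu had 2 probes each, the probe with the higher mean was used for the gene, and all 11 probes were well above background on all 12 arrays with no saturated spot.

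Liver RNA came from F2 males of the C3H/HeN strain, about 74 weeks old. In the arsenite line the pregnant F0 females drank tap water with 85 ppm sodium arsenite on gestation days 8 to 18, in the control line plain tap water, and F1 and F2 mice of both lines received no arsenite. F1 males and females were mated at 10 weeks to give the F2 mice. Each of 4 groups held 3 samples. The control line gave non-tumour liver, and the arsenite line gave normal liver, non-tumour liver and liver tumours. The labels do not say how normal and non-tumour liver were told apart or which samples came from 1 mouse, so p-values measure the spread between these samples. Normal and tumour samples of the control line were not analysed here, and exposure and tumour are thus seen together only in the arsenite line.

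Tyrosine, from food or made from phenylalanine, is transaminated by Tat, oxidised by Hpd, opened by Hgd, isomerised by Gstz1 and split by Fah into fumarate and acetoacetate. Tryptophan is opened by Tdo2 and passes through kynurenine to Kmo, Kynu and Haao, whose product feeds the synthesis of NAD. Both routes run at high rate in hepatocytes, and Tat and Tdo2 are classical targets of glucocorticoids there. Inherited loss of Fah causes a tyrosinaemia with liver damage, and inhibition of Hpd is its treatment.

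The probes of Hpd and Tdo2, the members that differed most and least between tumours and non-tumour liver, are shown because they are the sequences the values were read with. Both hold 60 bases, 5′ to 3′, in lower case with no part marked. They lie on the minus strand of mm9, and each spans more of the genome than its own length, 2124 bases for Hpd and 3011 for Tdo2, so each crosses a splice junction.
Hpd, chr5:123622237-123624360: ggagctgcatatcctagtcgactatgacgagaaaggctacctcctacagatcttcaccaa
Tdo2, chr3:81767918-81770928: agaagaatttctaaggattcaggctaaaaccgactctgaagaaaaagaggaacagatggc

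The probe of Fah (chromosome 7, 91740916 to 91741732, minus strand, mm9) also crosses a junction. The other probes lie in 1 piece of 60 bases: Tat on chromosome 8 (112523207 to 112523266, plus strand), Hgd on chromosome 16 (37621972 to 37622031, plus strand), Gstz1 on chromosome 12 (88505612 to 88505671, plus strand) and Haao on chromosome 17 (84230696 to 84230755, minus strand). The probe used for Kmo lies on chromosome 1 (177590673 to 177590732, plus strand) and that for Kynu on chromosome 2 (43537195 to 43537254, plus strand). No gene models on mm9 were used here, so exon and UTR are not stated.

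The 200 bases before the annotated start of the 3 members with the largest falls, and of Tdo2, are shown because these genes are set side by side below. They are RefSeq sequences on GRCm38.p6, 5′ to 3′ on the strand of the gene, with matches to any of 5 motifs in capitals.
Hpd, chr5:123182724-123182923, minus strand: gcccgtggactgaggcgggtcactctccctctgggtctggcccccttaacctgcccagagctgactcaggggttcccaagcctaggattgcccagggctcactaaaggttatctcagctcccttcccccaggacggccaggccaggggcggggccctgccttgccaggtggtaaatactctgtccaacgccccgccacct
Tat, chr8:109990236-109990435, plus strand: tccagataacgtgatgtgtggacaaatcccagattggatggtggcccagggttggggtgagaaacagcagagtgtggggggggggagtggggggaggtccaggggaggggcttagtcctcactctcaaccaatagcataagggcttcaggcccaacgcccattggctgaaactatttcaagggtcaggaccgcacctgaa
Hgd, chr16:37579953-37580152, plus strand: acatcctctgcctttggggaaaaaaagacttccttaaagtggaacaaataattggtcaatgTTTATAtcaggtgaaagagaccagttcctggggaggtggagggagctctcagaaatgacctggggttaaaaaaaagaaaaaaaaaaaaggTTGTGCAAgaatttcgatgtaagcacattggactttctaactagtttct
Tdo2, chr3:81975729-81975928, minus strand: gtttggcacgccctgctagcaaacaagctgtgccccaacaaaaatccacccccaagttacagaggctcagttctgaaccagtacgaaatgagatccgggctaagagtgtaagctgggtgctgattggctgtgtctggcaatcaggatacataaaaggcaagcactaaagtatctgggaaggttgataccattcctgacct

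Motifs were searched on both strands in the RefSeq windows from 250 bases before to 50 after the start. Of the 9 members 8 had a window, and Gstz1 had 2. The TATA box TATAAA was found for Hgd and Tdo2, where 13.6% of all 32851 windows held it. The match began at -229 from the start for Tdo2, outside the bases shown above, and at -139 on the opposite strand for Hgd. Neither match lay close to the start. The C/EBP core TTGCNNAA was found for Hgd alone, against 10.8% of windows. The HNF4 motif CAAAGT was found for Kmo (14.4% of windows), the glucocorticoid receptor motif TGTTCT for Kmo and Haao (19.0%), and the FOXA core TGTTTAC for no member (3.65%). A match is a string of letters and no more, and the windows of Hpd, Tat, Fah and Gstz1 held none of the 5.

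Signals were put on the log2 scale after division by the 75th percentile of the array, which lay between 153 and 245 units, with the tumours at 215 to 245. Between 40.5% and 46.9% of spots were well above background. Tumours shared a slide of their own, as did the normal livers, whereas both non-tumour groups shared the remaining slide. Slide and group therefore cannot be told apart in any comparison except that of the 2 non-tumour groups, which lay in different rows of 1 slide. The 7 bright spike-in controls differed by -0.07 to 0.41 between tumour and non-tumour arrays of the arsenite line. Outside tumours they were lower in arsenite-line non-tumour arrays, by -0.36 to -0.15 against normal and by -0.46 to -0.15 against control-line non-tumour arrays. Differences of enzymes of that size between these groups may thus hold a part due to scaling, which was not tested. Albumin (Alb), the defining hepatocyte product, was at 10.61, 10.83 and 10.78 in the tumours, against 10.81, 10.84 and 10.72 in the non-tumour liver of the same line. Of 6 tested hepatocyte markers that include Alb, 2 were lower in tumours against that liver and 3 against normal liver, by the test described below. Of all genes tested 30.0% and 31.0% were called lower in these comparisons. Fewer cells of a type and less RNA per cell cannot be told apart in such bulk samples.

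The first comparison set arsenite-line tumours against non-tumour liver from that line. Of the 9 enzymes 8 fell, by limma's 2-sided moderated test with Benjamini-Hochberg adjustment over 18101 genes (adjusted p under 0.05, called changed from here on). All 5 tyrosine enzymes and 3 of the 4 tryptophan enzymes were among them, no enzyme rose, and in those 8 all 3 tumours lay below all 3 non-tumour samples, as they did for 35.9% of genes tested. The falls ran from 10.3-fold for Hpd to 1.75-fold for Gstz1, and Tdo2 was the enzyme that was not called. Tumours differed widely from non-tumour liver: 30.0% of all genes tested were called lower and 47.1% were called in either direction. The median of the 9 differences was -1.13, against -0.13 over all genes tested.

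**Figure D1:**
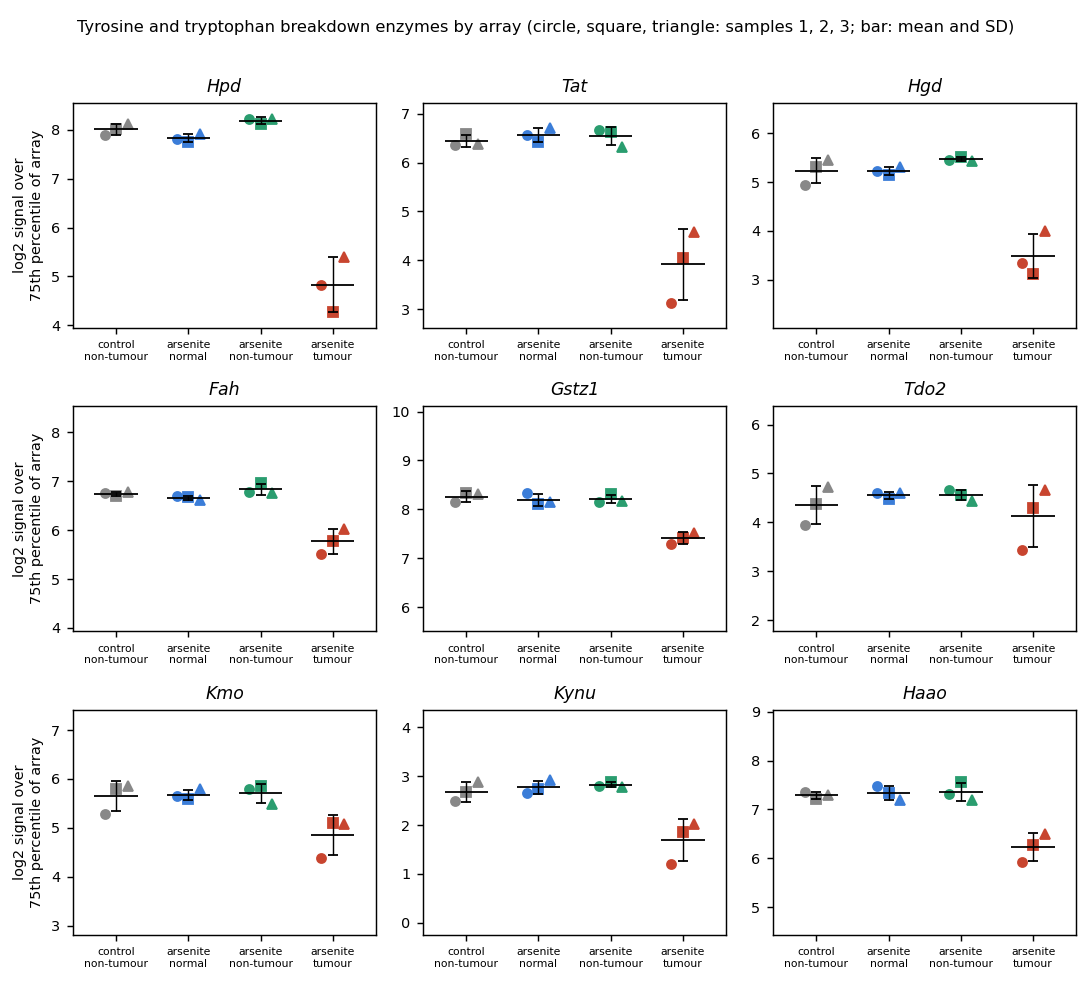
Log2 signal over the 75th percentile of the array (vertical axis, the same span in every panel) for the 9 enzymes in the 4 groups; circles, squares and triangles are samples 1, 2 and 3, the horizontal line is the mean and the bar the SD (n = 3). In 8 panels the 3 tumours lie below all 9 other arrays, and in the Tdo2 panel tumour 3, at 4.65, lies among them.

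Tat, the aminotransferase that starts tyrosine breakdown, had log2 values of 6.36, 6.58 and 6.38 in control-line non-tumour liver, 6.57, 6.42 and 6.72 in normal liver, 6.68, 6.63 and 6.32 in arsenite-line non-tumour liver, and 3.13, 4.05 and 4.57 in tumours. The tumours lay apart from the other groups, which overlapped one another. Tumour minus non-tumour was -2.63 ± 0.29 (SE, n = 3 per group, limma adjusted p = 4.4e-05), a fall to 16.2% of the non-tumour level. Tumour 1 kept 9.37% of that level, tumour 2 kept 17.7% and tumour 3 kept 25.5%.

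Hpd, the dioxygenase that makes homogentisate, stood at 7.90, 8.03 and 8.11 in control-line non-tumour liver, 7.82, 7.74 and 7.91 in normal liver, 8.22, 8.12 and 8.23 in arsenite-line non-tumour liver and 4.83, 4.27 and 5.39 in tumours. Its lowest array outside the tumours was still 2.36 above its highest tumour. The difference of -3.36 ± 0.22 ranked 175 from the lowest of 18101 genes, where Tat ranked 302. Outside the tumours Hpd gave processed signals of up to 59958 units, among the brightest on the array, with no spot marked as saturated.

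Hgd, which opens the ring of homogentisate, was at 4.95, 5.30 and 5.45 in control-line non-tumour liver, 5.22, 5.14 and 5.31 in normal liver, 5.45, 5.52 and 5.43 in arsenite-line non-tumour liver and 3.34, 3.12 and 4.0 in tumours. The tumours were again apart from all other arrays. The fall was 3.95-fold (difference -1.98 ± 0.20, SE, n = 3, limma adjusted p = 2.9e-05). Tumour 2 had the lowest value here and for Hpd, whereas tumour 1 had the lowest for the other 7 enzymes.

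The last enzymes of the route fell less. Gstz1, the maleylacetoacetate isomerase, was at 8.14, 8.33 and 8.31, then 8.33, 8.10 and 8.14, then 8.16, 8.31 and 8.18 in the 3 groups outside tumours, in the order above, and at 7.28, 7.42 and 7.52 in tumours. Its tumours were the closest together of all members, with an SD of 0.12, close to the pooled SD of 0.10 in the other groups. Fah, the final hydrolase, was at 6.75, 6.70 and 6.78, then 6.69, 6.68 and 6.62, then 6.78, 6.96 and 6.76 outside tumours and at 5.51, 5.79 and 6.03 in tumours. The differences were -0.81 ± 0.10 for Gstz1 and -1.06 ± 0.12 for Fah (SE, limma adjusted p = 0.00011 and 6.3e-05). The 95% intervals of Tat (-3.27 to -1.99) and Hpd (-3.84 to -2.88) did not reach those of Fah (-1.33 to -0.79) and Gstz1 (-1.03 to -0.58), while that of Hgd (-2.43 to -1.53) overlapped the interval of Tat. These intervals use 1 spread pooled over all 4 groups. The tumour SD was 4.67 times the pooled SD of the other groups for Tat and 6.49 times for Hpd. The intervals of Tat and Hpd may thus be too narrow, and their gap from those of Fah and Gstz1 is a description. The differences between members were not themselves tested.

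Tdo2, which opens the tryptophan ring, was the exception. Its values were 3.94, 4.38 and 4.71 in control-line non-tumour liver, 4.60, 4.47 and 4.59 in normal liver, 4.66, 4.56 and 4.44 in arsenite-line non-tumour liver and 3.43, 4.30 and 4.65 in tumours. Tumour 1 was at 46.0% of the non-tumour mean, tumour 2 at 83.9%, and tumour 3 was 0.10 above it on the log2 scale, so the groups overlapped. The difference of -0.43 ± 0.28 was not called (limma adjusted p = 0.23), and its 95% interval of -1.04 to 0.19 includes a fall as large as that of Gstz1. Without tumour 1 the difference was -0.08, and without tumour 3 it was -0.69 (adjusted p = 0.060).

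The 3 later tryptophan enzymes fell. Kmo, the kynurenine hydroxylase, was at 5.29, 5.80 and 5.86 in control-line non-tumour liver, 5.65, 5.60 and 5.79 in normal liver, 5.78, 5.85 and 5.48 in arsenite-line non-tumour liver and 4.37, 5.11 and 5.08 in tumours. The highest tumour lay only 0.18 below the lowest other array. The difference was -0.85 ± 0.21 (limma adjusted p = 0.0078), and the fit of the 6 arrays with the sample number as a block gave an adjusted p of 0.0504, which ended the call. The second Kmo probe differed by -0.75 (adjusted p = 0.014 over 24144 probes).

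Kynu, the kynureninase, was at 2.48, 2.67 and 2.88, then 2.66, 2.74 and 2.92, then 2.80, 2.89 and 2.79 outside tumours and at 1.20, 1.86 and 2.02 in tumours. Its difference was -1.13 ± 0.19 (limma adjusted p = 0.00074), with no overlap. Its second probe lies elsewhere on chromosome 2 (43459748 to 43459807, plus strand, mm9). That probe read 0.59, 1.40 and 1.59 in tumours and 2.77, 2.82 and 2.74 in non-tumour liver, a difference of -1.58 against -1.13 for the first probe. Haao, which makes the precursor of quinolinate, was at 7.36, 7.22 and 7.30, then 7.49, 7.33 and 7.20, then 7.31, 7.56 and 7.20 outside tumours and at 5.92, 6.27 and 6.50 in tumours. It also fell with no overlap (-1.13 ± 0.15, limma adjusted p = 0.00016).

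**Figure D2:**
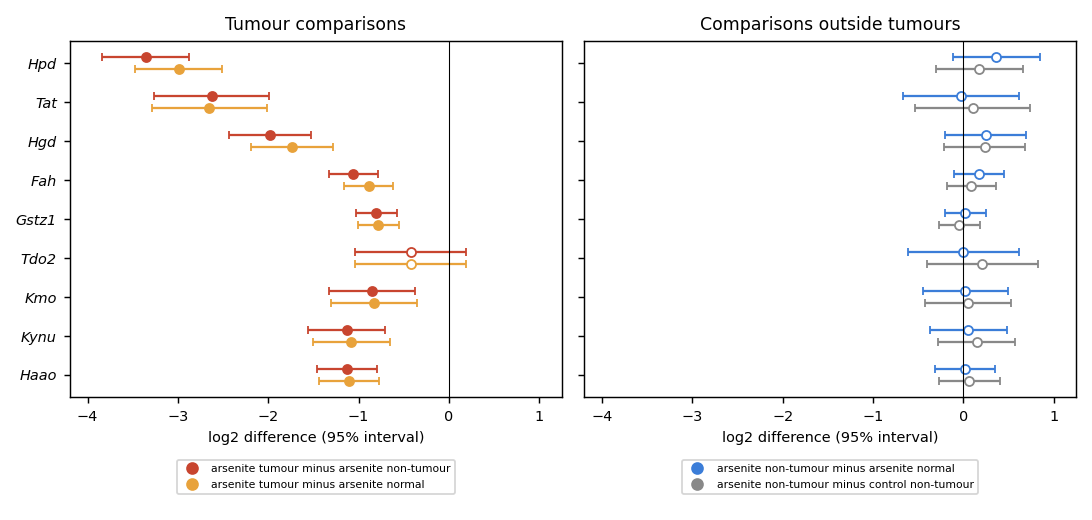
Log2 differences with 95% intervals (horizontal axis) for the 9 enzymes; the left panel sets tumours against arsenite-line non-tumour (red) and normal liver (orange), the right panel non-tumour against normal liver (blue) and against control-line non-tumour liver (grey). Filled points are called at an adjusted p under 0.05: 8 of 9 in each tumour comparison and 0 in the right panel.

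Tumours were then set against normal liver of the arsenite line, which asks whether the same enzymes differ when the reference is normal tissue. The tumour arrays are shared with the first comparison. Again 8 of 9 enzymes fell, where 31.0% of all genes tested were called lower and 48.1% in either direction, and the median of the 9 differences was -1.08 against -0.15 over all genes. For those 8 the groups did not overlap, as for 37.7% of genes tested. Hpd fell 7.96-fold (-2.99 ± 0.22, SE, n = 3, limma adjusted p = 3.3e-06), Tat 6.28-fold and Hgd 3.33-fold. The differences were -0.89 for Fah, -0.78 for Gstz1, -0.83 for Kmo, -1.08 for Kynu and -1.11 for Haao. Kmo had an adjusted p of 0.0090 here, which became 0.081 when arrays were aligned on their median signal. Tdo2 differed by -0.43 ± 0.28 and was not called (adjusted p = 0.23).

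Non-tumour and normal liver of the arsenite line were compared to ask whether the enzymes differ outside the tumour. None of the 9 was called by limma, none had an unadjusted p under 0.05, and 0% of all genes tested were called (1238 had an unadjusted p under 0.05). The spread in this test includes that of the tumours. For Hpd the SD within groups was 0.29 with the tumours included and 0.09 pooled over the other groups. Unadjusted p-values and standard errors may thus be too large for members that spread widely in tumours. Differences ran from -0.02 to 0.37. Hpd was the largest, at 0.37 ± 0.22 (adjusted p = 0.79), with all 3 non-tumour values above all 3 normal values. Hgd and Fah also had non-tumour values above every normal value, so 3 of 9 members did not overlap in that direction, against 7.86% of all genes tested. In the fit of the 9 arrays outside tumours, chosen after the data were seen, the adjusted p of Hpd was 0.40.

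Non-tumour liver was compared between the arsenite and control lines, which asks about the F0 exposure on 1 slide. No member was called by limma or had an unadjusted p under 0.05, and 0.00552% of all genes tested were called. The spread in this test again includes that of the tumours. Unadjusted p-values may thus be too large for members that spread widely there. No member was called in the fit of the arrays outside tumours either. Differences ran from -0.05 for Gstz1 to 0.23 for Hgd, with a standard error of 0.10 and 0.20. For Hpd the 3 arsenite-line values lay above the 3 control-line values (difference 0.18, adjusted p = 1.0), which 3.62% of genes tested did in that direction. The 95% interval for Hpd was -0.31 to 0.66, so a change of the size seen in tumours lies outside it.

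Outside tumours the enzymes varied little. Over those 9 arrays the range of a member ran from 0.23 for Gstz1 to 0.77 for Tdo2, and in each of the 3 groups the SD of Hpd stayed at 0.11 or below. In tumours the SD was larger for every member, from 1.17 times the pooled SD of the other groups for Gstz1 to 6.49 times for Hpd. Tumour 3 had the highest value for 8 of the 9 enzymes and tumour 2 for Kmo. The median over members, relative to the mean outside tumours, was -1.41, -0.96 and -0.74 in tumours 1, 2 and 3, and lay between -0.16 and 0.13 in the other arrays.

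**Figure D3:**
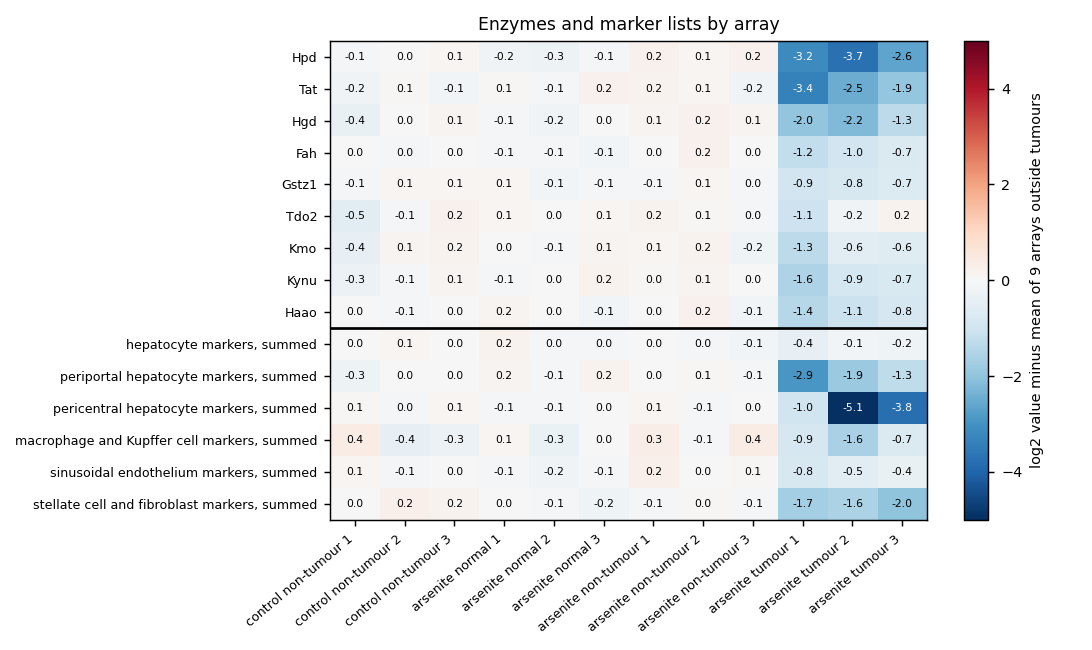
Log2 value minus the mean of the 9 arrays outside tumours (colour and printed number) for the 9 enzymes and for the summed signal of 6 marker lists, by array. Of the 9 enzymes 8 are low in all 3 tumours, 7 are lowest in tumour 1, while the pericentral sum is lowest in tumour 2 and the periportal sum in tumour 1. The sums are of linear signals, so the brightest marker of a list weighs most.

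Markers of the cells that liver samples can hold were read beside these values. In tumours against arsenite-line non-tumour liver, 30.0% of all genes tested were called lower and 47.1% in either direction. The summed signal of 6 tested hepatocyte markers was 12.49 to 12.76 in tumours and 12.76 to 12.88 in arsenite-line non-tumour liver, and 2 of the 6 fell. Of the 9 macrophage and Kupffer cell markers 7 fell, with Clec4f of Kupffer cells at -2.27 ± 0.18, and their summed signal was 5.34 to 6.25 in tumours against 6.92 to 7.34. Among 6 sinusoidal endothelial markers 3 fell and 1 rose, and among 7 stellate cell and fibroblast markers 4 fell and 2 rose. Their summed signals were 5.78 to 6.23 against 6.55 to 6.83, and 4.14 to 4.53 against 6.04 to 6.17. All sums are of linear signals, so the brightest marker weighs most. Dcn, at 3.84 to 4.06 in tumours and 5.97 to 6.10 in non-tumour liver, made up most of the stellate cell and fibroblast sum. The T and NK cell, neutrophil and erythroid lists each had 1 member that fell, the B and plasma cell list 1 that rose, and the bile duct list none. Cd8a, Klrb1c and Ngp were above background on no array. The part of these cells in the fall of the enzymes was not tested.

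Hepatocytes differ along the liver lobule, and markers of both ends were read. The share of all genes tested that were called lower in tumours against arsenite-line non-tumour liver was 30.0%. Of 7 periportal markers 3 fell and 1 rose, and their summed signal was 6.98, 8.02 and 8.59 in tumours 1, 2 and 3, against 9.79 to 9.94 in arsenite-line non-tumour liver. Of 8 tested pericentral markers 5 fell, with summed signals of 9.28, 5.16 and 6.52 in tumours 1, 2 and 3, against 10.18 to 10.38. Most of that sum was Cyp2e1, at 8.95, 5.01 and 6.34 in these tumours. Glul, glutamine synthetase of the cells next to the central vein, was at 6.25, 0.41 and 1.80 in tumours 1, 2 and 3. In arsenite-line non-tumour liver it was at 5.77, 5.36 and 5.56. In tumour 1 Glul, Rhbg and Lgr5 lay above all non-tumour values of that line. There Oat, Slc1a2, Cyp2e1, Cyp1a2 and Tbx3 lay below them. The order of the tumours for Tat, Fah, Gstz1, Tdo2, Kynu and Haao, lowest in tumour 1 and highest in tumour 3, was that of the periportal sum and also of the sinusoidal endothelial sum. Hpd and Hgd, lowest in tumour 2, and Kmo, highest in tumour 2, had other orders. With 3 tumours few orders are possible, so a shared order says little. The part of zonation in these values was not tested.

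The steps that supply tyrosine, from a list chosen for this route, were read in the same way. Of 7 tested genes 5 fell against non-tumour liver and none rose, where 30.0% of all genes tested were called lower, and the median difference was -0.88 against -0.13 over all genes. Gch1 and Qdpr, which make and recycle tetrahydrobiopterin, differed by -1.13 and -1.10, and the mitochondrial aspartate aminotransferase Got2 by -0.88. Got1, the cytosolic form, was called at -0.80 with an adjusted p of 0.0495, which passed in 7 of 25 alternative settings. With the sample number as a block in the 6 arrays its adjusted p was 0.10, and without tumour 1 its difference was -0.36. It was not called against normal liver (-0.32). Pcbd1 (-0.24) and Il4i1 (-0.26) were not called, and Hpdl was above background on no array.

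Among 13 tested genes that flank the 4 tryptophan enzymes, 8 fell and none rose, where 30.0% of all genes tested were called lower, and the median difference was -0.81 against -0.13 over all genes. Ido2, an enzyme with the same reaction as Tdo2, was at 0.46, 1.01 and 1.22 in tumours and at 2.81, 3.16 and 2.91 in non-tumour liver (-2.06 ± 0.21, limma adjusted p = 2.7e-05). Afmid, the formamidase between Tdo2 and Kmo, was at 0.80, 1.41 and 1.80 in tumours and at 3.75, 3.65 and 3.66 in non-tumour liver (-2.35 ± 0.20). Both fell and Tdo2, beside them in the route, was not called, though the difference between their changes was not tested. Gcdh and Dhtkd1, of the glutaryl branch, differed by -1.95 and -2.42, and Ddc, the aromatic amino acid decarboxylase, by -3.11.

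The steps towards NAD were mixed. Qprt, which joins quinolinate to the NAD pathway, differed by -0.42 ± 0.12 (limma adjusted p = 0.013), a call made in 20 of 25 alternative settings and lost under quantile normalisation (adjusted p = 0.19), with the sample number as a block in the 6 arrays (0.072) and without non-tumour sample 2 (0.052), among others. Nmnat1 and Nmnat3, which attach the adenylyl group, fell by 0.81 and by 1.22 on the log2 scale, while Nadsyn1 (-0.01) was not called. Acmsd, which diverts the product of Haao away from NAD, was at -0.68, 0.71 and 1.38 in tumours and was not called (0.12 ± 0.49). The aminotransferases Kyat1 (-0.27) and Kyat3 (-0.29) and the oxidase Maoa (-0.26) were not called either. Ido1, Aadat and Tph1 were above background on no array. Against normal liver 4 of 7 supply genes and 8 of 13 flanking tryptophan genes fell and none rose, where 31.0% of all genes tested were called lower. In both comparisons outside tumours no gene of either list was called.

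**Figure D4:**
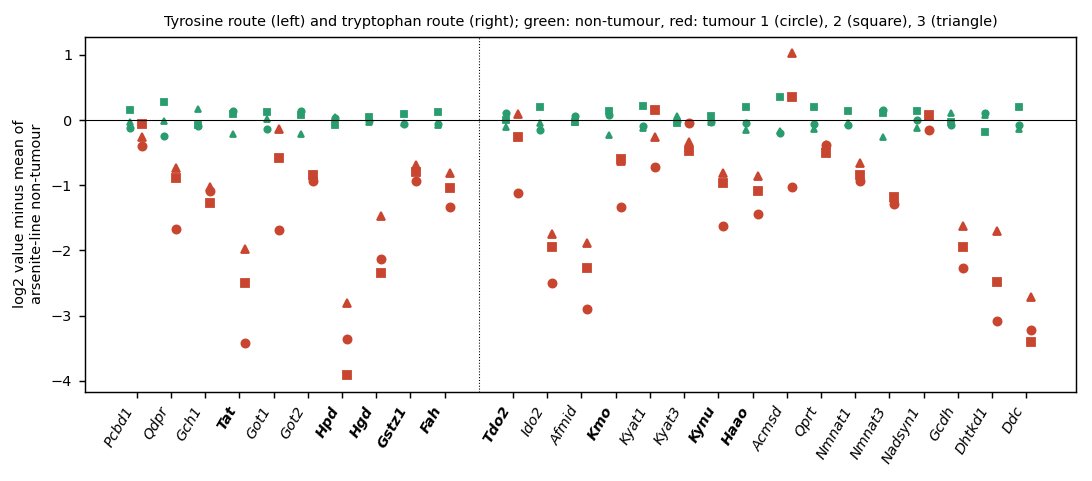
Log2 value minus the mean of arsenite-line non-tumour liver (vertical axis) for each tumour (red) and each non-tumour sample (green), with genes roughly in the order of the tyrosine route (left of the dotted line) and the tryptophan route (right); bold names are the 9 enzymes. Hpd and Ddc lie lowest on each side by their mean (-3.36 and -3.11), and Acmsd has tumours on both sides of 0.

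Transcription factors known to act on these genes changed less than the enzymes by the median difference of tumours against non-tumour liver, -0.28 against -1.13. Of 9 tested, 2 fell against non-tumour liver and none rose, where 30.0% of all genes tested were called lower. The smaller change does not hold for each factor. Onecut1 spread widely, at 1.97, 5.19 and 3.09 in arsenite-line non-tumour liver and at 2.44 or below in tumours, and was not called. Cebpa, a liver factor of the C/EBP family, was at 3.85, 3.89 and 3.90 in tumours and at 4.48, 4.95 and 4.53 in non-tumour liver (-0.77 ± 0.15, limma adjusted p = 0.0021). Nr3c1, the glucocorticoid receptor, was not called against non-tumour liver (-0.17, adjusted p = 0.074) and was called against normal liver (-0.33, adjusted p = 0.0035), a call that ended under quantile normalisation (adjusted p = 0.23), median alignment (0.68), the percentile over detected probes (0.051) and the 6 arrays with the sample number as a block (0.070). Hnf4a, the hepatocyte nuclear factor, was not called in either (0.14 and 0.01), and no factor was called outside tumours.

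The genes whose profile over the 12 arrays lay nearest were sought for the 3 members with the largest range, by the root mean square difference of centred log2 values. For Hpd they were Macrod1 (0.19), Fn3k (0.19) and Lrit1 (0.24). For Tat they were Bhmt (0.18), which methylates homocysteine with betaine, Afmid (0.21) and Cth (0.21), the cystathionine lyase. For Hgd they were Coq8a (0.13), an array transcript without a gene symbol (0.14) and Hibadh (0.14), a valine breakdown enzyme. The likeness is mostly that of tumours against other arrays and is a description.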

How the data were processed

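RNA of 12 livers or liver tumours was hybridised to Agilent 1-colour (Cy3) arrays. Per the labels, the authors labelled column-purified RNA with a low-input kit. The deposited scanner files give, per the file headers, a processed intensity of each spot, background-subtracted and detrended, from Feature Extraction 10.7.3.1, whereas the submitters' processing notes name 12.0.3.1. The value table that the authors deposited holds a linear ratio, which was checked to be the processed signal over the 75th percentile of all spots of the array, and was used as an alternative.

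From the processed intensity, log2 values minus that of the 75th percentile over the 59305 non-control spots were computed and spots of a probe averaged, without outlier-flagged spots. A probe was kept when at least 50% of its spots were well above background on all 3 arrays of a group, and the brightest probe stood for a gene. Genes were compared with limma 3.58.1 (R 4.3.3) in 1 fit of 12 arrays, whose spread includes that between tumours. The code was tested on simulated data with the same spread in every group, which leaves the wider spread of these tumours untested. Python 3.11.15 with pandas 2.3.3, numpy 2.4.6 and matplotlib 3.10.9 served for the rest.

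The members, gene lists, motifs and alternatives were chosen with earlier results of these data known. Beside the 9 members the text names, by rule, Ido1, Ido2, Afmid, Acmsd, Qprt, Aadat, Kyat1 and Kyat3, and up to 6 called genes of each list with the smallest p against non-tumour liver and 3 in each other comparison; further names from the lists and the markers named were chosen after their values were seen. Some genes that the rule names, and 1 motif searched, are not reported here. Equal sample numbers in tumour and non-tumour arrays had residual correlations of 0.15, 0.14 and 0.23, which met the rule for pairing (each over 0.1); the labels do not say that they mark 1 mouse. For that comparison the blocked value is given where it changed the call of a gene named. The number of arrays limits the precision.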

Additional observations from a re-analysis of the deposited data

How the results depend on the processing

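In both tumour comparisons, 7 or 8 of the 9 enzymes were called lower in each of 25 alternative settings, and leaving out 1 array gave 8 each time. The block on the sample number in the 6 arrays gave 7, ending the call of Kmo alone, and changed no other member's call. Got1, Qprt and Fkbp5 also lost a call against non-tumour liver in at least 1 setting. Alignment on the median ended the call of Kmo against normal liver. The slide as a block was not run separately, since slides coincide with groups except within the 6 arrays of both non-tumour groups. The share of called genes that were higher in tumours was 36.4% against non-tumour liver, and 47.7% after quantile normalisation and 53.4% with the percentile over detected probes. Against normal liver it was 35.7%, and 48.3%, 62.0% (median alignment) and 50.7% (detected probes). Median alignment moved the median of all genes by 0.24 in tumours against normal liver. It moved that median more outside tumours, by 0.32 for non-tumour minus normal and by 0.28 between lines. Over 26 settings the difference of Hpd reached 0.68 for non-tumour minus normal and 0.46 between lines. The size of differences outside tumours thus depends on the scaling, though no member was called there in any setting. Without the filter 14219 genes were called against normal liver, over 34741 tested, instead of 8711. Outside tumours 0 to 16 genes (non-tumour against normal) and 0 to 8 genes (between lines) were called.

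Signs turned only for differences that were not called. Non-tumour minus normal became -0.00604 for Kmo under quantile normalisation, 0.29 for Tat and 0.31 for Tdo2 under median alignment, 0.036 (normexp), 0.0046 (value table) and 0.011 (array weights) for Tdo2, and -0.0071 for Kynu with array weights. Between lines, Gstz1 became 0.23 under median alignment and Kmo -0.015 with array weights. Leaving out 1 array gave ranges for non-tumour minus normal of -0.026 to 0.093 for Gstz1, -0.082 to 0.097 for Haao, -0.049 to 0.13 for Kmo, -0.0070 to 0.13 for Kynu, -0.098 to 0.085 for Tat and -0.053 to 0.053 for Tdo2. Between lines the ranges were -0.036 to 0.14 for Haao and -0.13 to 0.17 for Kmo. In tumours, Nr3c1 became 0.059 against non-tumour liver under quantile normalisation. Against normal liver Kyat3 became 0.17 (quantile), 0.15 (median alignment), 0.056 (detected probes) and 0.052 (normexp). Leaving out 1 array gave -0.34 to 0.69 for Acmsd against non-tumour liver and, against normal liver, -0.40 to 0.63 for Acmsd, -0.66 to 0.12 for Got1 and -0.24 to 0.026 for Kyat3.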

Other observations

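Other amino acid breakdown enzymes were read in the same arrays. Of 15 genes of a list for other amino acids, all tested, 11 fell in tumours against arsenite-line non-tumour liver and none rose, with a median difference of -1.11 against -0.13 over all genes tested (30.0% of all genes were called lower). Prodh, the proline dehydrogenase, was at 3.03, 0.66 and 2.79 in tumours and at 6.40, 6.63 and 6.50 in non-tumour liver (-4.35 ± 0.49, SE, n = 3, limma adjusted p = 5.0e-05). Aldh4a1, the next enzyme of proline breakdown, differed by -1.11, the lysine enzyme Aass by -1.82, and Bckdha and Ivd of branched-chain amino acid breakdown by -1.18 and -1.17. Amt of the glycine cleavage system differed by -1.40, whereas Gldc of the same system was not called (-0.48). Against normal liver 11 of 15 fell and none rose, where 31.0% of all genes tested were called lower.

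Tat belongs to the genes that glucocorticoids induce in liver, and 8 others from such a list went both ways in tumours. Tsc22d3, Pck1 and G6pc fell and Igfbp1 and Fkbp5 rose, while Per1, Sgk1 and Mt1 were not called. Against non-tumour liver 30.0% of all genes tested were called lower and 47.1% in either direction. Igfbp1, a secreted binder of insulin-like growth factors, was at 9.78, 9.63 and 9.47 in tumours and at 4.95, 4.42 and 4.68 in non-tumour liver (4.94 ± 0.75, limma adjusted p = 0.00036), and it ranged from 1.85 to 5.78 in control-line non-tumour liver. G6pc and Pck1, enzymes of glucose production, differed by -3.03 and -1.94, and Tsc22d3, a glucocorticoid-induced leucine zipper protein, by -1.59. Fkbp5, a co-chaperone of the glucocorticoid receptor, differed by 0.77 (adjusted p = 0.032), which was called in 18 of 25 alternative settings and lost, for one, in the fit of the 6 arrays (adjusted p = 0.062) and without non-tumour sample 2 (0.12).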
